A study of Mus musculus with 9 samples.

Results

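Goblet cells are the mucus-secreting cells of the intestinal epithelium, and 10 genes of their products and of the type 2 effector response were followed after loss of Pcgf6: Muc2, Tff3, Fcgbp, Zg16, Agr2, Clca1, Retnlb, Spdef, St3gal6 and Atp2a3. The genes were taken by symbol from the count tables, which hold 55341 genes. All 10 were found there and all 10 passed the filter on low counts, among 16250 genes tested. The measurement was RNA sequencing (Smart-seq2, from 2 ng of RNA) of small intestinal crypts of C57BL/6 males 8 to 12 weeks old. The groups were AhCre Pcgf6 knockout (KO, n = 2), AhCre wild type (WT, n = 2), Villin-CreERT2 Pcgf6 KO (n = 2) and Villin-CreERT2 WT (n = 3), and the series asks what loss of the Polycomb group protein PCGF6 changes in adult intestinal epithelium. Both AhCre groups received beta-naphthoflavone (BNF), which switches AhCre on, and both Villin groups received tamoxifen, which switches on a Cre driven by the epithelial Villin promoter. The interval after induction is given as 15 days in the titles but as 7 days in a second line of the descriptions and in the design text, and for Villin samples 1 line of their description names BNF. The labels do not say whether WT mice carried the Cre or a floxed allele, nor if each numbered replicate is its own animal, so the p-values rest on the spread among these libraries, which may be technical.

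Goblet cells store gel-forming mucin in granules and release it as the mucus layer that keeps bacteria and parasites away from the epithelium. Their differentiation depends on the transcription factors ATOH1 and SPDEF, their mucin is folded and assembled in the endoplasmic reticulum and Golgi, where its sugars and sialic acids are added, and secretion is triggered by calcium. The type 2 cytokines interleukin-4 and interleukin-13 act on the epithelium through STAT6. In mice this response to worms brings goblet cell hyperplasia, expansion of tuft cells and strong induction of Retnlb and Clca1. Of the 10 genes, Muc2, Tff3, Fcgbp, Zg16, Agr2, Clca1 and Spdef are markers of goblet cells. St3gal6 and Atp2a3 are not defining markers of goblet cells, and both had been called in an earlier analysis of the same libraries, so their calls here are not independent evidence.

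Libraries held 6455098 to 12377921 counts, and 3 counts, the limit that a count of 0 allows, stood for 0.194 to 0.615 CPM (the count relative to library size times TMM factor) in a single library. This limit covers counting error only. The 10 genes together took 0.364% to 0.925% of a library's counts, lowest in Villin WT 2. Pcgf6 itself had 89 and 68 counts in AhCre KO against 219 and 136 in AhCre WT, and 15 and 16 in Villin KO against 60, 99 and 49 in Villin WT. Pcgf6 fell in Villin (log2 fold change -1.99, SE 0.42, adjusted p = 0.022), while its value in AhCre was -0.89 (SE 0.40, adjusted p = 1). The counts are of the whole gene, and which exons were deleted is not given. Replicates differed far beyond sampling noise, at 6.48 to 10.8 chi-square units per degree of freedom in the AhCre groups and 43.3 to 63.6 in the Villin groups.

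The 10 genes fell into a set that was higher in KO crypts and a set that was not called. Retnlb, St3gal6 and Atp2a3 rose on the mean of both drivers, by 28.6-fold, 2.19-fold and 3.88-fold, and Clca1, St3gal6 and Atp2a3 rose in Villin. The abundant secretory products Muc2, Tff3, Fcgbp, Zg16 and Agr2 did not pass the test in any KO comparison of the fit of all 9 libraries, nor did Spdef. Calls are those of edgeR's quasi-likelihood test at 0.05 after Benjamini-Hochberg adjustment over all genes tested. In Villin 3 of the 10 genes were called higher and 0 lower, where 6.21% of all genes were called (3.33% higher, 541 genes, and 2.88% lower, 468 genes). That split was 704 higher and 388 lower with DESeq2 size factors, and 344 higher and 1096 lower with scaling by total counts. On the mean of both drivers 3 were called higher and 0 lower, where 1.17% of all genes were called (0.972% higher; 158 genes higher and 32 lower, or 167 and 81 with scaling by total counts). The DESeq2 Wald test called 3 of the 10 there (Clca1, St3gal6 and Atp2a3), where it called 2.7% of all genes. St3gal6 and Atp2a3 are in each of these sets of 3 and had been called before in these libraries. The excess over the share of all genes is thus partly built in. In AhCre 0 of the 10 were called, where 0.00615% of all genes were, and at an unadjusted p under 0.05 4 were higher (Clca1, Retnlb, Spdef and St3gal6) and 0 lower. The DESeq2 Wald test called 0 of the 10 in AhCre, where it called 0.456% of all genes. The median log2 fold change of the 10 genes and of all genes was 0.64 and -0.0048 in AhCre, -0.11 and -0.18 in Villin, and 0.19 and -0.095 on the mean. The members' median in Villin depended on scaling, at 0.0062 with DESeq2 size factors and -0.42 with total counts, where all genes had -0.076 and -0.51. In bulk crypts, fewer cells of a type and less RNA per cell cannot be told apart.

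**Figure D1:**
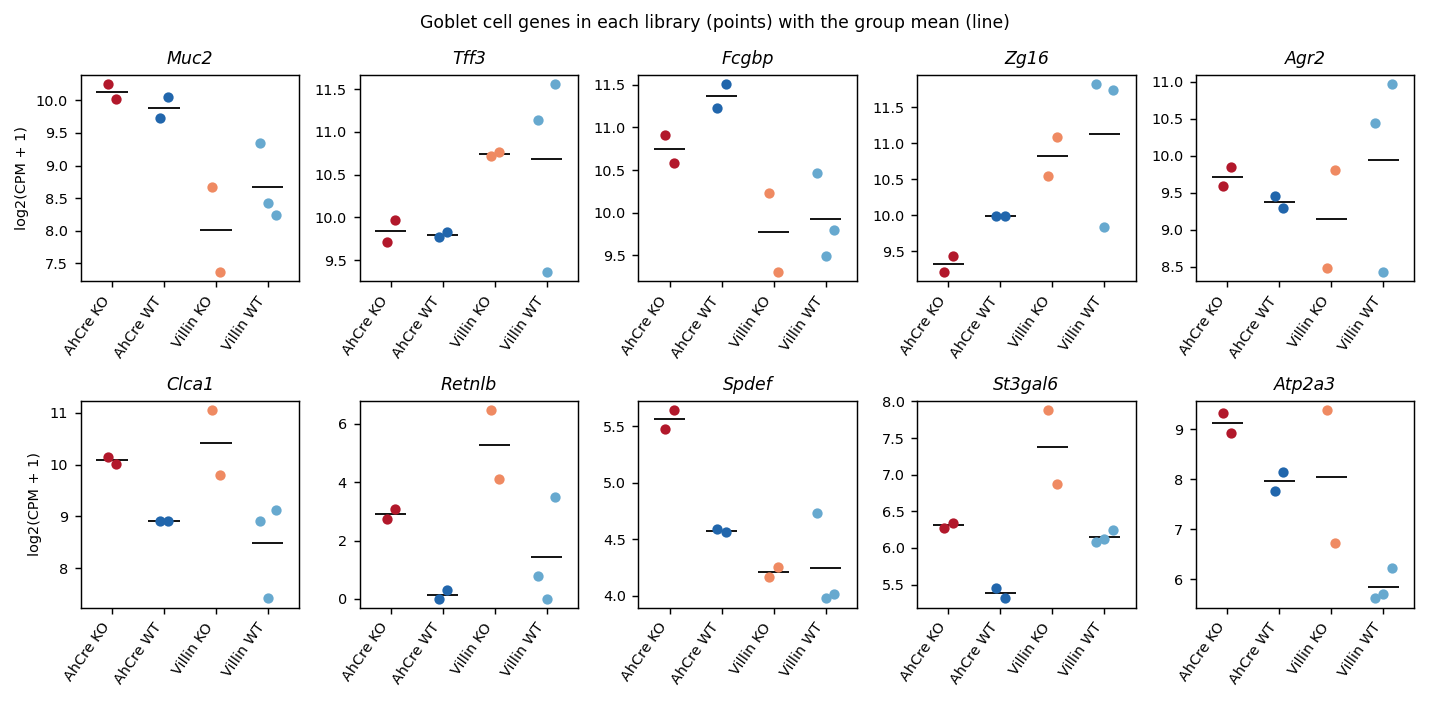
Level of each of the 10 genes as log2(CPM + 1), with 1 point per library and a line at the group mean, for AhCre KO, AhCre WT, Villin KO and Villin WT; each panel has its own axis range. The KO points of Clca1, Retnlb, St3gal6 and Atp2a3 lie above all WT points of the same driver, whereas the KO and WT points of Muc2 and Tff3 overlap in both drivers.

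Muc2 encodes the gel-forming mucin that builds intestinal mucus (GRCm38 chr7:141690340-141754693, plus strand). It had 1219 and 1037 CPM in AhCre KO against 848 and 1060 CPM in AhCre WT, and 405 and 164 CPM in Villin KO against 649, 343 and 302 CPM in Villin WT. The KO and WT libraries overlapped in both drivers. The log2 fold change was 0.24 (SE 0.47, adjusted p = 1) in AhCre and -0.60 (SE 0.44, adjusted p = 0.407) in Villin, and the 95% interval on the mean of both, -0.87 to 0.52, leaves room for a change in either direction. The Villin value was -1.38 without Villin KO 1, -0.10 without Villin KO 2 and -0.18 without Villin WT 1.

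Fcgbp, an abundant mucus protein that is linked to mucin (chr7:28071236-28120862, plus strand), had 1930 and 1538 CPM in AhCre KO against 2398 and 2916 CPM in AhCre WT. It had 1203 and 630 CPM in Villin KO against 1417, 720 and 887 CPM in Villin WT. Both AhCre KO libraries lay below both AhCre WT libraries, and the Villin groups overlapped. The log2 fold change was -0.62 (SE 0.43, adjusted p = 1) in AhCre and -0.14 (SE 0.39, adjusted p = 0.853) in Villin. Fcgbp shares 6.42% of its 50-base stretches with 3 other genes of the annotation, 9530053A07Rik, B230219D22Rik and March2, so a part of its reads could be split.

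Zg16, a lectin-like mucus protein that binds Gram-positive bacteria (chr7:127050156-127087328, minus strand), had 591 and 691 CPM in AhCre KO against 1018 and 1012 CPM in AhCre WT. In Villin it had 1493 and 2187 CPM in KO against 3632, 913 and 3418 CPM in WT. Its pattern followed that of Fcgbp, with both AhCre KO libraries below the AhCre WT libraries and overlap in Villin. The log2 fold change was -0.66 (SE 0.53, adjusted p = 1) in AhCre and -0.53 (SE 0.49, adjusted p = 0.521) in Villin.

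Tff3, a trefoil peptide secreted with mucin that serves epithelial repair (chr17:31125306-31129646, minus strand), had 834 and 1003 CPM in AhCre KO against 873 and 908 CPM in AhCre WT. In Villin it had 1677 and 1731 CPM in KO against 2257, 657 and 3017 CPM in WT. Tff3 was the member whose fitted log2 fold change in AhCre was smallest in size, with means of 919 ± 119 CPM in AhCre KO and 890 ± 24.9 CPM in AhCre WT (SD, n = 2 each). The log2 fold change was 0.05 (SE 0.53, adjusted p = 1) in AhCre and -0.21 (SE 0.49, adjusted p = 0.813) in Villin.

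Agr2, a protein disulfide isomerase of the endoplasmic reticulum needed to make mucin (chr12:35992907-36004087, plus strand), had 774 and 918 CPM in AhCre KO against 702 and 625 CPM in AhCre WT. In Villin it had 356 and 892 CPM in KO against 1395, 344 and 2008 CPM in WT. Both AhCre KO libraries were above the AhCre WT libraries, while in Villin the lowest value belonged to a WT library and the groups overlapped. The log2 fold change was 0.35 (SE 0.63, adjusted p = 1) in AhCre and the fold change in Villin was 0.50 (SE of its log2 0.60, adjusted p = 0.307), and the difference between the drivers, 1.35 (SE 0.87), had an adjusted p of 0.463. On the log2 scale the Villin value was -0.47 without Villin KO 1, -0.48 without Villin WT 3 and -1.82 without Villin KO 2.

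Clca1 encodes a secreted metalloprotease that cleaves the Muc2 network and is a classical interleukin-13 target (chr3:145003817-145032776, minus strand). It had 1138 and 1033 CPM in AhCre KO against 483 and 481 CPM in AhCre WT. It had 2120 and 892 CPM in Villin KO against 483, 170 and 560 CPM in Villin WT. All 4 KO libraries were above all 5 WT libraries. Clca1 rose 3.73-fold in Villin (log2 fold change 1.90, SE 0.48, adjusted p = 0.039). The values were 1.17 in AhCre (SE 0.53, adjusted p = 1) and 1.54 on the mean of both drivers (SE 0.36, adjusted p = 0.0673); the mean passed with scaling by total counts (1.38, adjusted p = 0.0201). The Villin call was lost without Villin KO 1 (1.16, adjusted p = 0.245) and without Villin WT 1 (2.04, adjusted p = 0.0858). Leaving out any 1 of the 4 AhCre libraries ended it as well, although those libraries enter the Villin contrast only through the shared spread and scaling.

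Retnlb encodes RELM-beta, a cysteine-rich protein secreted by goblet cells that acts against worms and bacteria (chr16:48816856-48818892, plus strand). The first 300 of its 318 coding bases, from the GENCODE transcript on GRCm38, are shown because this gene had the widest range among the 10 on the log2 scale; none of the 50-base stretches of its transcript occurs in a transcript of another gene:
Retnlb coding sequence: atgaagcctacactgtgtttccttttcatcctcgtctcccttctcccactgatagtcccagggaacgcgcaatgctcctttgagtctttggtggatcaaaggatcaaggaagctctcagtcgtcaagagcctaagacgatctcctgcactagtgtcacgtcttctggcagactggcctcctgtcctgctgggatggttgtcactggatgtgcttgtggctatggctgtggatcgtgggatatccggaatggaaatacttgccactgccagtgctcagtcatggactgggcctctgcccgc
Retnlb had 70 and 86 counts in AhCre KO (5.66 and 7.46 CPM) against 0 and 3 counts in AhCre WT (0 and 0.224 CPM). It had 428 and 105 counts in Villin KO (87.7 and 16.2 CPM) against 4, 0 and 53 counts in Villin WT (0.719, 0 and 10.2 CPM). Each KO library exceeded every WT library of its driver, and in Villin WT 3 the gene was above the level of both AhCre KO libraries.

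Retnlb rose on the mean of both drivers (log2 fold change 4.84, SE 1.03, adjusted p = 0.0445). The ratio of summed counts, scaled by library size, was 62.9 in AhCre (exact 95% interval 21.1 to 308, from 156 and 3 counts) and 15.3 in Villin (11.6 to 20.4, from 533 and 57 counts), and these intervals cover counting error only. Within a driver the test was not passed, with 5.79 in AhCre (SE 1.73, adjusted p = 0.664) and 3.89 in Villin (SE 1.12, adjusted p = 0.0586); in Villin it was passed with DESeq2 size factors (adjusted p = 0.0496) and with total counts (adjusted p = 0.0352). The DESeq2 Wald test did not call Retnlb on the mean (4.92, adjusted p = 0.0688). Without Villin WT 3 the log2 fold change in Villin was 7.33 (adjusted p = 0.0127), and on the mean 6.56 (adjusted p = 0.00987). Without Villin KO 1 the mean was 4.02 (adjusted p = 0.138). The call on the mean was kept without Villin KO 2 and without Villin WT 3, and was lost without each of the other 7 libraries. Fitted fold changes of a gene with libraries at 0 depend on the prior count.

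Spdef, the transcription factor that drives goblet cell maturation (chr17:27714352-27728955, minus strand), had 43.6 and 48.9 CPM in AhCre KO against 23.1 and 22.6 CPM in AhCre WT. It had 17.0 and 18.0 CPM in Villin KO against 25.5, 14.8 and 15.2 CPM in Villin WT. The AhCre KO libraries were both above the AhCre WT libraries, at 46.2 ± 3.77 against 22.8 ± 0.322 CPM (SD, n = 2 each), while the Villin KO libraries fell among the WT libraries. The log2 fold change was 1.02 in AhCre (SE 0.35, unadjusted p = 0.0133, edgeR, adjusted p = 0.996) and -0.08 in Villin (SE 0.33, adjusted p = 0.908). Its sign in Villin turned under DESeq2 size factors (0.033), in the DESeq2 test (0.034) and with the Villin libraries fitted alone (0.062). The difference between drivers was 1.09 (SE 0.48, edgeR unadjusted p = 0.0428) and did not pass after adjustment (adjusted p = 0.302).

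St3gal6 encodes a sialyltransferase that adds sialic acid to the ends of glycans (chr16:58468125-58524243, minus strand). It had 76.6 and 79.8 CPM in AhCre KO against 42.8 and 38.7 CPM in AhCre WT. It had 235 and 116 CPM in Villin KO against 66.5, 68.6 and 74.9 CPM in Villin WT. Every KO library was above every WT library, and the 3 Villin WT libraries were close to each other at 70.0 ± 4.39 CPM (SD, n = 3).

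St3gal6 rose 2.50-fold in Villin (log2 fold change 1.32, SE 0.32, adjusted p = 0.0334) and 2.19-fold on the mean of both drivers (1.13, SE 0.24, adjusted p = 0.0421). In AhCre the value was 0.94 (SE 0.35, adjusted p = 1). The Villin call was lost without Villin WT 1 (1.28, adjusted p = 0.078) and without any 1 of the 4 AhCre libraries. Without Villin KO 1 the value was 0.74 in Villin (adjusted p = 0.207) and 0.85 on the mean (adjusted p = 0.113). The call on the mean was kept without Villin KO 2 alone of the 9 libraries, and the value then was 1.34 (adjusted p = 0.00292). With scaling by total counts the value was 0.96 in Villin (adjusted p = 0.0836) and 0.93 on the mean (adjusted p = 0.0873), neither of them called. The gene shares 1603 of its 6172 exon bases with the overlapping gene Dcbld2, where reads cannot be told apart. Dcbld2 had 0.771 to 3.89 CPM over the 9 libraries and a log2 fold change of 0.24 on the mean (SE 0.48, adjusted p = 0.875), far below the level of St3gal6.

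Atp2a3 encodes SERCA3, a pump that returns calcium to the endoplasmic reticulum (chr11:72961169-72993044, plus strand). It had 640 and 486 CPM in AhCre KO against 217 and 282 CPM in AhCre WT. It had 665 and 104 CPM in Villin KO against 48.0, 50.9 and 74.0 CPM in Villin WT. KO libraries were above the WT libraries of their driver in both cases, and the 2 Villin KO libraries stood further apart from each other than the KO and WT libraries did in AhCre.

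Atp2a3 rose 6.67-fold in Villin (log2 fold change 2.74, SE 0.56, adjusted p = 0.02) and 3.88-fold on the mean (1.96, SE 0.42, adjusted p = 0.0477), with 1.17 in AhCre (SE 0.61, adjusted p = 1). A single library set the size of this change: without Villin KO 1 the value was 0.88 in Villin (adjusted p = 0.231) and 1.03 on the mean (adjusted p = 0.127), and without Villin KO 2 it was 3.52 and 2.35 (adjusted p = 0.000167 and 0.000239). The call on the mean was kept without Villin KO 2 alone and was lost with a filter of at least 1 CPM in 4 libraries (1.95, adjusted p = 0.0509), and the Villin call was lost without Villin WT 1 (2.62, adjusted p = 0.081) and without Villin WT 2 (2.76, adjusted p = 0.0529) as well. The difference between the drivers was -1.56 (AhCre minus Villin, SE 0.82, adjusted p = 0.369). Summed over the 15 tuft cell markers of the list used here, levels were 1236 and 1163 CPM in AhCre KO against 226 and 224 CPM in AhCre WT, and 4428 and 734 CPM in Villin KO against 167, 117 and 233 CPM in Villin WT. Within each driver the KO library that was higher in Atp2a3 was higher in these markers too, though the 2 AhCre KO sums were close. In AhCre KO the order was the opposite for St3gal6 (76.6 and 79.8 CPM) and Retnlb (5.66 and 7.46 CPM). An order of 2 libraries per driver says little. All 15 were called higher in Villin and on the mean, where 3.33% and 0.972% of all genes were. The marker list was chosen with earlier results of these data known, so these counts are not independent evidence. In AhCre 0 of the 15 were called, where 0.00615% of all genes were. No tuft cell marker of the list was at 0 in any KO library, and in the WT libraries only Il25 was, in Villin WT 1 and Villin WT 3. The part of tuft cells in the rise of Atp2a3, St3gal6, Retnlb and Clca1 was not tested.

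**Figure D2:**
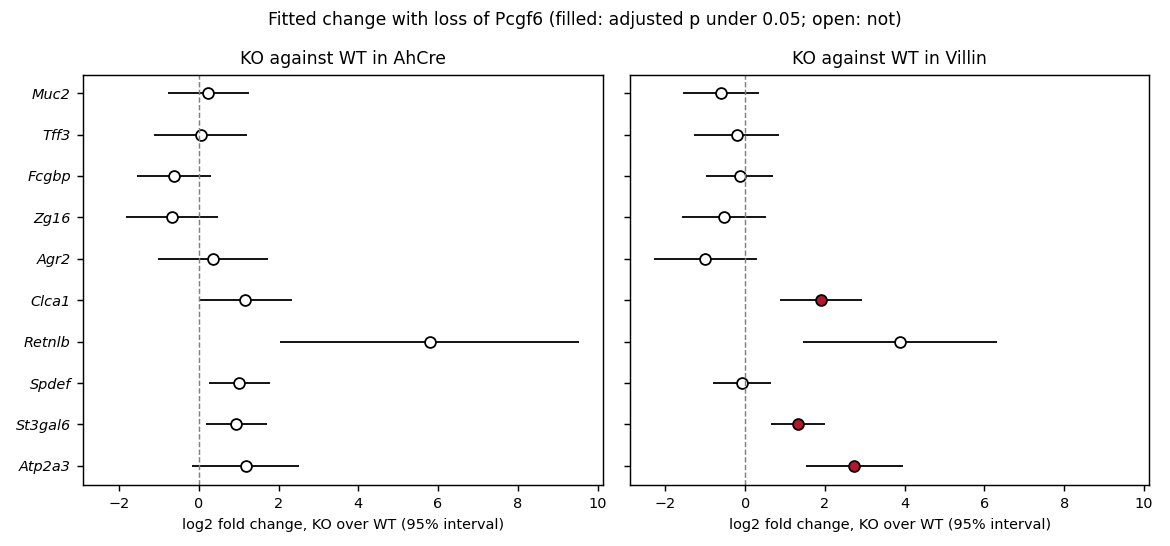
Fitted log2 fold change of KO over WT for each of the 10 genes in AhCre (left) and Villin (right), with its 95% interval; filled points are called at an adjusted p under 0.05. Filled points appear in the Villin panel for Clca1, St3gal6 and Atp2a3, and the interval of Retnlb is the widest in both panels.

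The promoters of Atp2a3 and St3gal6 are shown because both genes were called in Villin and on the mean. Each window runs from 250 bases before to 50 bases after a RefSeq start (GRCm38.p6), 5′ to 3′ on the gene's strand, with CG dinucleotides in capitals. RefSeq windows matched 6 of the 10 genes (Fcgbp, Muc2, Atp2a3, Agr2, St3gal6 and Spdef), St3gal6 with 2 of them; Retnlb, Clca1, Tff3 and Zg16 are named only.
Atp2a3 (chr11:72960919-72961218, plus strand): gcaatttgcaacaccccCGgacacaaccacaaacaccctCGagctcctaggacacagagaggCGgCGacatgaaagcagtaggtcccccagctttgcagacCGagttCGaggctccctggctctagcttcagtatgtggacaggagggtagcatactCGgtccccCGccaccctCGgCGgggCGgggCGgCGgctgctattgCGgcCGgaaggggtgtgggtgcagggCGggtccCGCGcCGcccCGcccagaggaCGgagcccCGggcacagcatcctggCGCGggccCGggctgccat
St3gal6, window 1 (chr16:58524204-58524503, minus strand): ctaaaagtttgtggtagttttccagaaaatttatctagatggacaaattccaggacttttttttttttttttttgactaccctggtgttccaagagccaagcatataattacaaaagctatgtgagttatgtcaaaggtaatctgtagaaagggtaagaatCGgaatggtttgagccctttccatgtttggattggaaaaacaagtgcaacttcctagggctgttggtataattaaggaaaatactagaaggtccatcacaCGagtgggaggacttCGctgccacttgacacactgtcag
St3gal6, window 2 (chr16:58523377-58523676, minus strand): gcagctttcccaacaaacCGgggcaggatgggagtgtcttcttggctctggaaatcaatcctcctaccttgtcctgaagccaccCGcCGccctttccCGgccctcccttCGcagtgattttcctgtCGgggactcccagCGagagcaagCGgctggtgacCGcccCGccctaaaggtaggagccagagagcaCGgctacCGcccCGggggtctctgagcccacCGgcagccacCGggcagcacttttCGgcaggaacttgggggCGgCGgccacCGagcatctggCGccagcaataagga
The Atp2a3 window held 25 CG dinucleotides, more than 81.6% of the 32851 promoter windows of the table, whose median was 7. The windows of St3gal6 held 3 and 20, more than 23.3% and 73.5% of all windows. Fcgbp, Agr2 and Spdef had 7 each and Muc2 had 6. The G or C content was 68.3% for Atp2a3 and 38.7% and 64.7% for St3gal6, with a median of 52.7% over all windows. Both strands were searched for CACGTG, the E-box of MAX and MGA (present in 7.15% of all windows), for TTCCCGC, an E2F-type element (4.6%), for TTC and GAA separated by 4 bases, a STAT6-type element (6.95%), and for the same letters separated by 3 bases (8.3%). No match occurred in any of the 7 windows.

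Genes were also counted by whether the KO and WT libraries overlapped. In AhCre, 6 of the 10 genes were higher in both KO libraries than in both WT libraries (Agr2, Clca1, Retnlb, Spdef, St3gal6 and Atp2a3), where 23.4% of all genes were, and 2 were lower (Fcgbp and Zg16), where 25.1% were. In Villin, 4 were higher without overlap (Clca1, Retnlb, St3gal6 and Atp2a3), where 14.5% of all genes were, and 0 were lower, where 19.8% were. In both drivers at a time 4 of the 10 were higher without overlap, against 3.42% of all genes, and 0 were lower, against 4.12%. St3gal6 and Atp2a3, in each of these higher sets, had been called in an earlier analysis of these libraries. The excess over the share of all genes is thus partly built in. None of the 10 passed the test of the difference between the drivers, where 0.0738% of all genes did (0.0677% lower); 1, Spdef, had an unadjusted p under 0.05, and the DESeq2 test called 0 of the 10, where it called 2.71% of all genes.

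With the AhCre libraries fitted alone, whose replicates were closer to each other than those of Villin, 7 of the 10 genes were called, where 6.43% of all genes were (3.62% higher and 2.82% lower). Clca1 (log2 fold change 1.19, adjusted p = 3.49e-05), Retnlb (5.87, adjusted p = 1.74e-06), Spdef (1.04, adjusted p = 0.00101), St3gal6 (0.96, adjusted p = 0.00121) and Atp2a3 (1.19, adjusted p = 0.00018) were higher. Fcgbp (-0.60, adjusted p = 0.0317) and Zg16 (-0.64, adjusted p = 0.0147) were lower. The calls of St3gal6 and Atp2a3 are again not independent evidence. The sizes were close to those of the fit of all 9 libraries, and the standard errors were smaller (for Clca1 0.15 against 0.53). With the Villin libraries fitted alone 1 of the 10 was called, Atp2a3 (2.88, adjusted p = 0.0179), where 1.89% of all genes were. 

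**Figure D3:**
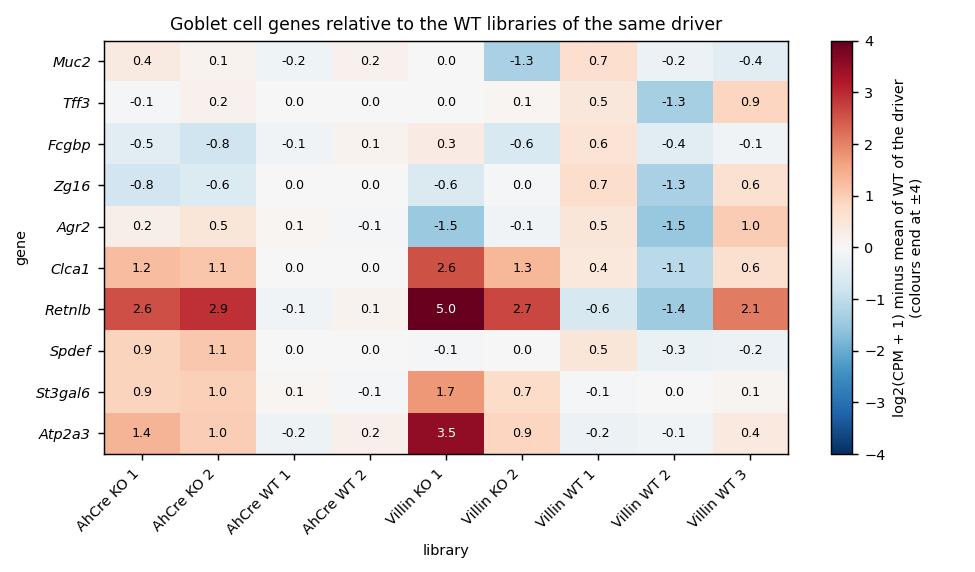
log2(CPM + 1) of each of the 10 genes (rows) in each library (columns) minus the mean of the WT libraries of the same driver; red is above and blue below that mean. Clca1, Retnlb, St3gal6 and Atp2a3 are red in all 4 KO columns, and Villin KO 1 holds the darkest cells. In Villin WT 2 the bluest cells are those of Tff3, Zg16, Agr2, Clca1 and Retnlb.

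Levels were also set against Muc2 of the same library, as a goblet cell scale. Clca1 had 0.934 and 0.997 counts per Muc2 count in AhCre KO against 0.569 and 0.454 in AhCre WT, and 5.24 and 5.44 in Villin KO against 0.743, 0.495 and 1.85 in Villin WT. St3gal6 had 0.0628 and 0.0770 counts per Muc2 count in AhCre KO against 0.0505 and 0.0365 in AhCre WT, and 0.579 and 0.706 in Villin KO against 0.102, 0.200 and 0.248 in Villin WT. Atp2a3 had 0.525 and 0.469 in AhCre KO against 0.256 and 0.266 in AhCre WT, and 1.64 and 0.637 in Villin KO against 0.0739, 0.149 and 0.245 in Villin WT. For these genes and Retnlb every KO library exceeded every WT library of its driver. The share of all genes without overlap was not computed on this scale. A lower Muc2 raises every ratio, and its log2 fold change in Villin was -0.60 (not called). There the mean ratio in KO over that in WT was 1.72 for Spdef, 1.43 for Tff3, 1.30 for Zg16 and 0.97 for Agr2. The ratio of Fcgbp was 1.58 and 1.48 in AhCre KO against 2.83 and 2.75 in AhCre WT. It was 2.97 and 3.84 in Villin KO against 2.18, 2.10 and 2.94 in Villin WT, so the Villin groups nearly touched. The CPM of Fcgbp overlapped in Villin. Its difference of log2 fold changes between the drivers was not called (-0.48, SE 0.57, edgeR adjusted p = 0.71). The ratios of Tff3 and Agr2 overlapped between KO and WT in both drivers. A ratio of this kind shows unequal change of 2 genes and does not say which of them changed.

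**Figure D4:**
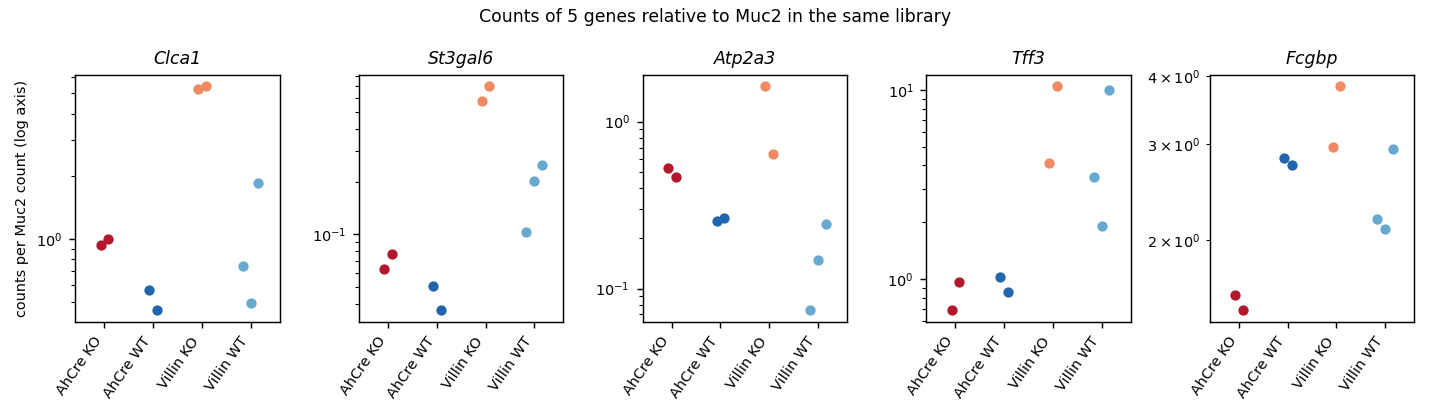
Counts of Clca1, St3gal6, Atp2a3, Tff3 and Fcgbp per Muc2 count in the same library, on log axes that differ between panels, with 1 point per library. The KO points of Clca1, St3gal6 and Atp2a3 lie above the WT points of the same driver, and those of Tff3 overlap. Those of Fcgbp lie below in AhCre and, by a narrow margin, above in Villin.

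The 10 genes did not vary as a block. After each gene was centred on the WT libraries of its driver, the root mean square difference of log2(CPM + 1) over the 9 libraries was smallest for Tff3 and Zg16 (0.410), followed by Muc2 and Fcgbp (0.496) and by Tff3 and Agr2 (0.534). Clca1 lay closest to Atp2a3 (0.538) and St3gal6 (0.561), and Zg16 and Retnlb lay farthest apart (2.72). Tff3, Zg16 and Agr2 shared a low value in Villin WT 2 and their highest values in the other Villin WT libraries. Clca1 (170 CPM) and Retnlb (0 counts) were lowest among the Villin libraries in Villin WT 2 as well, which lowers the WT mean of these genes. These distances are descriptions over the same 9 libraries, which share depth and scaling between genes.

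Among 8903 other genes with a mean of at least 10 CPM, the profile nearest to Retnlb was that of Fut2, a fucosyltransferase of mucin glycans (distance 0.197), followed by Mptx1 (0.443) and Siglecf (0.465). Fut2 had 20.4 and 22.4 CPM in AhCre KO against 2.52 and 2.46 CPM in AhCre WT, and 118 and 21.3 CPM in Villin KO against 1.98, 0.513 and 11.2 CPM in Villin WT. Like Retnlb, it was highest in Villin KO 1 and was raised in Villin WT 3 relative to the other Villin WT libraries. Nearest to Atp2a3 were Tnfrsf21 (0.180), the glucose transporter Slc2a1 (0.210) and the hexokinase Hk1 (0.268). Slc2a1 had 36.5 and 33.3 CPM in AhCre KO against 17.6 and 17.0 CPM in AhCre WT, and 136 and 23.3 CPM in Villin KO against 9.17, 14.0 and 17.9 CPM in Villin WT. Nearest to St3gal6 were Cpne3 (0.117), the secretory granule GTPase Rab27b (0.173) and the calpain Capn2 (0.175). Nearest to Muc2 were Fnta (0.124), Usf2 (0.136) and Cmas (0.149), the enzyme that activates sialic acid. A near profile says nothing of shared function or control, and the genes were ranked over these 9 libraries only.

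The WT libraries of the 2 lines differed for 2 of the 10 genes. Fcgbp was 2.64-fold higher in AhCre WT than in Villin WT (log2 fold change 1.40, SE 0.38, adjusted p = 0.046), at 2657 ± 366 (SD, n = 2) against 1008 ± 364 CPM (SD, n = 3). Atp2a3 was 4.33-fold higher (2.11, SE 0.55, adjusted p = 0.0399), at 250 ± 46.5 (SD, n = 2) against 57.6 ± 14.2 CPM (SD, n = 3). These 2 of 10 stand beside 7.58% of all genes called, 4.04% higher (657 genes) and 3.53% lower (574 genes), with a split of 1696 and 276 genes with scaling by total counts, which moved the median of all genes to 0.38 (-0.066 with TMM). Muc2 (1.15, SE 0.42, adjusted p = 0.102) passed with scaling by total counts only among the scalings (1.62, adjusted p = 0.0136). The test was not passed by Zg16 (-1.39, SE 0.51, adjusted p = 0.0983), Retnlb (-4.88, SE 1.73, adjusted p = 0.0922; -1.45 without Villin WT 3 and -7.92 without AhCre WT 2), Tff3 (-1.15, SE 0.50, adjusted p = 0.152), Agr2 (-0.91, SE 0.59, adjusted p = 0.321), St3gal6 (-0.78, SE 0.33, adjusted p = 0.138), Clca1 (0.25, SE 0.48, adjusted p = 0.751) or Spdef (0.31, SE 0.32, adjusted p = 0.555). Both calls were lost without any 1 of the 4 AhCre libraries, Villin WT 1 or Villin WT 3, and without Villin WT 2 the calls were Fcgbp as higher and Tff3, Zg16, Agr2 and Retnlb as lower. The lines also differed in genes with counts, at 38835 and 36898 in AhCre WT against 23812, 29750 and 23427 in Villin WT. Their TMM factors were 1.26 and 1.27 against 0.854, 1.12 and 0.806 in the same order. Driver, inducer, sequencing depth and any processing batch cannot be told apart in this comparison of the lines.

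These WT differences moved with transcript length. The 4 genes whose longest annotated transcript is under 1500 bases, Tff3 (493), Retnlb (696), Zg16 (723) and Agr2 (907), all had log2 fold changes below 0, and Muc2 (2926, from partial models), Clca1 (3655), Atp2a3 (4606) and Fcgbp (7928) had values above 0. The value of Retnlb rests on few counts and on single libraries, as given above. St3gal6 (4123) was below 0 and Spdef (1921) above it. Over all genes the median of AhCre WT minus Villin WT was -0.78 for transcripts of up to 1500 bases, -0.20 for over 1500 to 3000, 0.18 for over 3000 to 6000 and 0.37 above 6000. The KO effect followed length less closely, with medians of -0.42, -0.08, -0.10 and -0.31 in Villin and 0.13, -0.05, -0.03 and 0.00 in AhCre in the same order. The part of length in the WT differences was not tested.

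**Figure D5:**
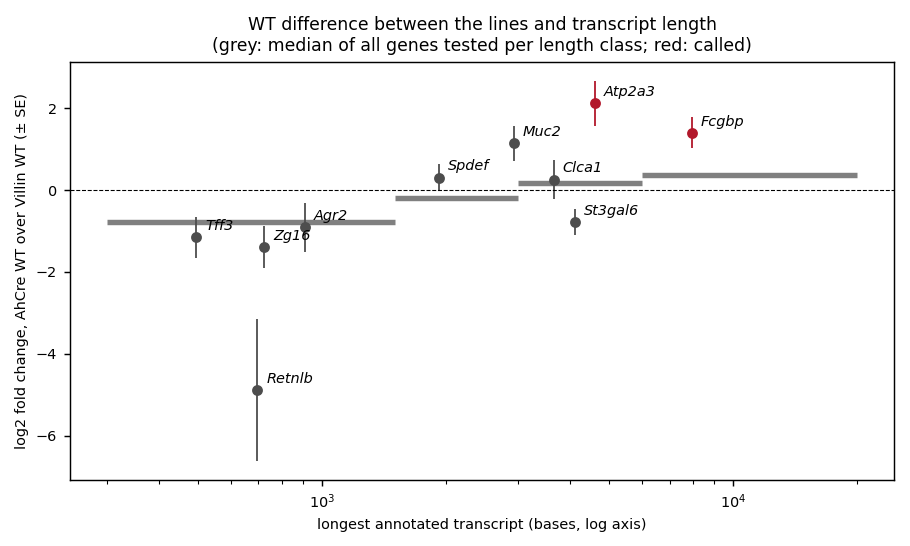
Log2 fold change of AhCre WT over Villin WT (± SE) for each of the 10 genes against the length of its longest annotated transcript (log axis), with the median of all genes tested in each length class as grey bars. The 4 shortest genes lie below 0, as does the median of their length class, and the called genes Atp2a3 and Fcgbp (red) lie above 0.

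On a scale per kilobase of exon, Tff3 was the most abundant of the 10 in every group. It had 1863 CPM per kilobase in AhCre KO, 1806 in AhCre WT, 3457 in Villin KO and 4010 in Villin WT. The divisor is all annotated exons merged, which can exceed the longest transcript (1257 against 723 bases for Zg16, 6172 against 4123 for St3gal6). Levels also moved with transcript length between the lines, so ranks of short against long genes are rough. Zg16 followed in Villin (1464 in KO, 2111 in WT), as it did in AhCre WT (807), whereas Agr2 (655) was above Zg16 (510) in AhCre KO. Clca1 had 287 CPM per kilobase in AhCre KO against 128 in AhCre WT, which placed it above Muc2 (158 in KO) in AhCre KO and close to it in AhCre WT (134). In Villin, Clca1 had 399 in KO against 107 in WT, where Muc2 had 39.9 and 60.5. Over the 4 groups Fcgbp ran from 87.3 to 253, Atp2a3 from 10.9 to 107, St3gal6 from 6.60 to 28.4, Spdef from 7.60 to 20.1 and Retnlb from 0.161 to 74.6 CPM per kilobase. The exon length of Muc2 (7127 bases) comes from 8 partial models, so its level per kilobase depends on that annotation.

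Of 32 other goblet cell genes listed, 29 were tested. In Villin 2 were called higher (Scin and Capn9) and 0 lower, where 6.21% of all genes were called. On the mean 1 was higher (Scin), where 1.17% were, and in AhCre 0 were called, where 0.00615% were. The list summed to 4577 and 4984 CPM in AhCre KO against 2968 and 2960 CPM in AhCre WT, and to 6471 and 5444 CPM in Villin KO against 4552, 2560 and 6201 CPM in Villin WT. Ang4, an antimicrobial ribonuclease that is also in the Paneth cell list, was named for its share of that sum after its values were seen. It had 1629 and 1821 CPM in AhCre KO against 552 and 479 CPM in AhCre WT, and 1328 and 926 CPM in Villin KO against 281, 48.2 and 893 CPM in Villin WT, with no overlap in either driver, and was not called (mean 1.61, SE 0.56, adjusted p = 0.22). Scin, an actin-severing protein, had 229 and 166 CPM in AhCre KO against 118 and 97.4 CPM in AhCre WT, and 700 and 813 CPM in Villin KO against 67.9, 155 and 148 CPM in Villin WT, and rose on the mean (log2 fold change 1.74, SE 0.28, adjusted p = 0.01). Capn9, a calpain of the stomach and gut, rose in Villin (1.38, SE 0.37, adjusted p = 0.0479). The list had a median log2 fold change of 0.19 in AhCre, -0.17 in Villin and 0.06 on the mean (-0.10 with scaling by total counts). With that scaling the Villin count was 1 higher and 2 lower, and the count on the mean was 0 without AhCre KO 1, AhCre WT 1 or AhCre WT 2. Atoh1, the factor that sets secretory fate, was not called: it had 63.0 and 54.9 CPM in AhCre KO against 38.4 and 42.9 CPM in AhCre WT, and 19.5 and 29.6 CPM in Villin KO against 19.2, 20.7 and 27.9 CPM in Villin WT (mean of both drivers 0.33, SE 0.23, adjusted p = 0.574).

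Of 33 enzymes listed that build and sialylate mucin glycans, 30 were tested; 3 were called higher in Villin (Gcnt3, Fut2 and B4galnt2), 3 on the mean (Gcnt3, Fut2 and Gcnt1), 0 in AhCre, and 0 were lower. These are 3 of 30 where 6.21% of all genes were called in Villin and 1.17% on the mean. In AhCre 0.00615% of all genes were called. Gcnt3, which makes core branches of mucin glycans, had 58.8 and 67.1 CPM in AhCre KO against 66.8 and 54.5 CPM in AhCre WT, and 545 and 304 CPM in Villin KO against 57.5, 37.7 and 66.9 CPM in Villin WT. It rose in Villin (log2 fold change 2.98, SE 0.35, adjusted p = 0.00407) and on the mean (1.51, SE 0.26, adjusted p = 0.0136), with 0.05 in AhCre (SE 0.38, adjusted p = 1); the difference between drivers was -2.92 (SE 0.51, adjusted p = 0.08). Fut2 rose on the mean (3.54, SE 0.67, adjusted p = 0.027) and in Villin (3.98, SE 0.88, adjusted p = 0.0272), and Gcnt1, another branching enzyme, on the mean (2.27, SE 0.47, adjusted p = 0.041). B4galnt2, which adds the terminal sugar of the Sda antigen, rose in Villin (1.06, SE 0.28, adjusted p = 0.0458). Among the other sialyltransferases of the list 0 were called. St6galnac6 had 18.9 and 17.3 CPM in AhCre KO against 3.23 and 2.98 CPM in AhCre WT, and overlapped in Villin. St3gal4 had 4054 and 3696 CPM in Villin KO against 1436, 1523 and 2906 CPM in Villin WT, and overlapped in AhCre. St6galnac4 was lower in AhCre KO (3.72 and 4.68 against 7.04 and 9.32 CPM). The list had a median of 0.13 (log2 fold change) in AhCre, 0.36 in Villin (-0.020 with scaling by total counts) and 0.18 on the mean. The count on the mean was 0 without any 1 of the 4 AhCre libraries or without Villin WT 1, and 1 without Villin KO 1 or Villin WT 2.

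Among calcium pumps and store calcium channels other than Atp2a3, 17 of 20 listed were tested. Of these, 0 were called in AhCre (0.00615% of all genes), in Villin (6.21%) or on the mean (1.17%). Their median log2 fold change in Villin was 0.44, where that of all genes was -0.18. Atp2a2, the common SERCA pump, was chosen after its values were seen: it had 54.7 and 47.7 CPM in AhCre KO against 44.3 and 48.0 CPM in AhCre WT, and 83.6 and 31.2 CPM in Villin KO against 68.8, 77.1 and 40.8 CPM in Villin WT. Its groups overlapped in both drivers (mean 0.01, SE 0.30, adjusted p = 0.992). Atp2b2, another calcium pump, was higher without overlap in both drivers, at low levels. It had 4.93 and 3.99 CPM in AhCre KO against 1.55 and 2.98 CPM in AhCre WT. In Villin it had 7.17 and 1.70 CPM in KO against 0.359, 1.03 and 0 CPM in WT. Itpr2 was higher in AhCre KO (43.0 and 37.7 against 15.8 and 18.1 CPM). Itpr1 was lower there (12.4 and 15.1 against 47.9 and 37.8 CPM). The members of highest level, Atp2b1, a calcium pump of the plasma membrane, and Mcu, the mitochondrial calcium uniporter, had 0.23 (SE 0.35, adjusted p = 0.839) and 0.13 (SE 0.26, adjusted p = 0.873) on the mean.

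The family of Clca1 was mixed. All 6 other Clca genes were tested; Clca2 (log2 fold change 3.79, SE 0.80, adjusted p = 0.0225) and Clca4a (1.43, SE 0.35, adjusted p = 0.036) rose in Villin, and Clca3a2 fell there (-1.80, SE 0.36, adjusted p = 0.0176). Clca2 had 1.94 and 3.12 CPM in AhCre KO against 0.969 and 0.746 CPM in AhCre WT, and 30.1 and 2.62 CPM in Villin KO against 0.719, 1.54 and 1.16 CPM in Villin WT, so Villin KO 1 stood apart. Clca4a had 904 and 494 CPM in Villin KO against 187, 240 and 353 CPM in Villin WT. Clca3a2 had 6.35 and 10.6 CPM in Villin KO against 26.8, 36.4 and 26.0 CPM in Villin WT, with no overlap of the groups. In Villin 3.33% of all genes were called higher and 2.88% lower. On the mean and in AhCre 0 of the 6 were called, where 1.17% and 0.00615% of all genes were. Without Villin KO 1, Villin WT 1 or Villin WT 2 the count of higher genes in Villin was 0. Clca4a and Clca3a2 belong to clusters of near copies, so their reads could be split. The remaining resistin-like genes, Retn, Retnla and Retnlg, had 0 to 8 counts in each library and were not tested, so the rise in this family was seen in Retnlb alone at a depth at which the others were at or near the limit of detection.

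The wider type 2 list held 21 genes, of which 15 were tested: 1 was called in AhCre, 9 higher and 1 lower (Nos2) in Villin, and 8 higher on the mean, beside 0.00615%, 6.21% and 1.17% of all genes in the same order. The list was chosen with earlier results of these data known, so its counts are not independent evidence of a type 2 response. Nos2, the inducible nitric oxide synthase, fell in Villin (log2 fold change -2.50, SE 0.52, adjusted p = 0.021). Pla2g4c, a phospholipase, had 539 and 444 CPM in AhCre KO against 2.26 and 1.34 CPM in AhCre WT, and 1568 and 529 CPM in Villin KO against 2.52, 1.03 and 1.73 CPM in Villin WT (mean log2 fold change 8.66, SE 0.47, adjusted p = 3.76e-06). It was the only gene of all 16250 called in AhCre. Gsdmc4, a gasdermin (2.93, SE 0.36, adjusted p = 0.00614), Sprr2a3, a small proline-rich protein (3.35, SE 0.52, adjusted p = 0.00952), and the alarmin Il33 (1.40, SE 0.27, adjusted p = 0.0282) rose on the mean, and Gsdmc4 and Sprr2a3 have near copies. Il33 had 6.47 and 6.85 CPM in AhCre KO against 7.49 and 5.52 CPM in AhCre WT, and 97.1 and 173 CPM in Villin KO against 14.4, 18.5 and 26.8 CPM in Villin WT; the difference between drivers was -2.74 (SE 0.54, adjusted p = 0.0983). The count of 8 was 1 without either AhCre WT library and 2 without Villin WT 1.

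Il4, Il5 and Il13 were at or near the limit of detection in crypt RNA, and whether a type 2 response was present was not tested. Il13 had 1 count in AhCre KO 1 and 0 counts in the other 8 libraries. Il4 had 0 to 3 counts and Il5 0 to 3 counts per library, and neither was tested. Il25, the tuft cell cytokine, had 8 and 20 counts in AhCre KO against 1 and 2 in AhCre WT, and 21 and 10 counts in Villin KO against 0, 1 and 0 in Villin WT, and rose in Villin (adjusted p = 0.0172), where the ratio of summed counts was 50.6 (exact 95% interval 8.43 to 2062, from 31 and 1 counts, counting error only).

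Markers of other cell types moved with some of these results. The calls below stand beside 6.21% of all genes called in Villin and 1.17% on the mean. In AhCre 0.00615% of all genes were called, so 0 calls there say little. The 8 Paneth cell markers summed to 12526 and 13382 CPM in AhCre KO against 7390 and 6553 CPM in AhCre WT, and to 4297 and 8872 CPM in Villin KO against 7353, 1913 and 13692 CPM in Villin WT, with 1 of 8 called (Pnliprp2, on the mean and in Villin). The 10 absorptive enterocyte markers summed to 61770 and 43486 CPM in Villin KO against 36124, 19902 and 33925 CPM in Villin WT, with 4 of 10 called higher, and to 9012 to 11234 CPM in the AhCre libraries, with 0 called. Of 8 crypt base stem cell markers 3 fell in Villin (Slc12a2, Axin2 and Lgr5) and 0 were called in AhCre. Among the Villin libraries, Villin WT 2 had the lowest Tff3, Zg16, Agr2, Clca1 and Retnlb. It had the lowest sums of Paneth cell, enteroendocrine and leukocyte markers there as well. Of 11 leukocyte markers tested 0 were called, and their sum ran from 26.9 CPM in Villin WT 2 to 957 CPM in Villin KO 2. Of 9 enteroendocrine markers 0 were called, and of 8 stromal markers 2 (Col1a1 and Col3a1) rose in Villin. The stromal markers summed to 60.3 and 59.1 CPM in AhCre KO against 141 and 147 CPM in AhCre WT, with 0 called, and to 160 and 164 CPM in Villin KO against 162, 22.6 and 16.2 CPM in Villin WT, where Villin WT 1 was level with the KO libraries. Of 7 markers of colon and caecum tested Car4 rose and Aqp8 fell in Villin and on the mean, and Cd177 fell in Villin. No marker of the tuft, Paneth or enterocyte lists was at 0 in a KO library. The same held in the WT libraries, except for Il25 in Villin WT 1 and Villin WT 3. The part of cell type shares in the values of the 10 genes was not tested.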

How the data were processed

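Smart-seq2 libraries hold no strand information, so overlapping genes share reads. The authors deposited raw gene counts, 1 table for each of 9 libraries, which are whole numbers without normalization. The submitters' processing notes name STAR 2.7, featureCounts and DESeq2 1.20 and the builds mm10 and GRCm38, with no role for each. Row names were all (100%) found in GENCODE M21 for GRCm38, the source of coordinates, lengths and shared exons. Counts were fitted with edgeR 4.0.16 in R 4.3.3: filterByExpr on the 4 groups, TMM scaling, 1 mean per group over all 9 libraries (5 residual and 7.43 prior degrees of freedom, BCV, the biological coefficient of variation, 0.332), quasi-likelihood tests and Benjamini-Hochberg adjustment over 16250 genes. SE is the size of the log2 fold change over the root of the F statistic. CPM carry TMM factors, and a pseudocount of 1 CPM served distances and plots. Libraries held 6455098 to 12377921 counts.

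Alternatives were DESeq2 size factors, total counts, other filters, the DESeq2 1.42.0 Wald test, each driver alone, a replicate block and each library left out. The 10 genes, the other lists and the tests were chosen with earlier results of these data known. Of each other list, up to 4 called genes by smallest adjusted p were named, or the 2 of highest mean CPM where none was called; likeness named the 3 nearest genes for Muc2, Retnlb, St3gal6 and Atp2a3. Atoh1, Ang4, Atp2a2, Nos2, Il25, the cytokine genes and the called genes of the marker lists were named after their values were seen. So were Atp2b2, Itpr1, Itpr2, St3gal4, St6galnac4 and St6galnac6. The fit was tested on simulated data.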

Additional observations from a re-analysis of the deposited data

How the results depend on the processing

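The fold changes of the 10 genes kept their sign in most alternatives, and what was called depended on the libraries and the spread more than on scaling. Under the alternatives that were not a left-out library, the number of members called in AhCre was 0, except 1 with no filter on low counts and 7 with each driver fitted alone. In Villin it was 3, with 4 under DESeq2 size factors and with no filter, and 1 alone. All-gene calls in AhCre were 1, against 137 with no filter, 74 with the DESeq2 Wald test and 1046 alone. In Villin 1009 calls became 1591 with no filter, 1749 with DESeq2 and 259 alone; on the mean 190 became 538 and 438 with no filter and DESeq2. The difference between drivers had 12 calls, with 4 under total counts, 340 with no filter and 380 with DESeq2. AhCre WT against Villin WT had 1231, with 1972 under total counts, 2290 with no filter and 2278 with DESeq2, and 2 members called, with 6 with no filter and 4 with DESeq2. Without a single library in turn, all-gene calls ran between 1 and 64 in AhCre, 73 and 1949 in Villin, 2 and 757 on the mean, 0 and 415 for the difference and 8 and 3030 between WT groups; the calls among the 10 ran between 0 and 4, 0 and 4, 0 and 1 and 0 and 5 in Villin, on the mean, for the difference and between WT groups. All-gene calls were fewest in Villin without Villin KO 1, and most in every KO comparison without Villin KO 2. Signs that turned belonged to values not called. They were Spdef in Villin with DESeq2 size factors (0.033), with the DESeq2 test (0.034) and alone (0.062), Fcgbp in Villin alone (0.0038), and the difference between drivers of Zg16 with total counts (0.058). With libraries left out, the log2 fold change spanned -0.087 to 0.17 for Tff3 in AhCre; -0.52 to 0.23 for Tff3, -0.66 to 0.24 for Fcgbp and -0.19 to 0.22 for Spdef in Villin; -0.57 to 0.072 for Muc2 and -0.23 to 0.14 for Tff3 on the mean; and -0.068 to 0.56 for Clca1 between WT groups. The difference between drivers spanned -2.34 to 0.31 for Atp2a3, -1.21 to 0.022 for Clca1, -0.86 to 0.055 for Fcgbp, -1.53 to 4.95 for Retnlb, -0.79 to 0.20 for St3gal6, -0.18 to 0.58 for Tff3 and -0.43 to 0.18 for Zg16. The median of all genes in Villin was -0.18, and -0.51 with total counts and -0.076 with DESeq2 size factors. Deviations of same-numbered KO and WT libraries from their group means had r = -0.16 in AhCre, and 0.075 and -0.20 in Villin. In a group of 2 libraries these deviations are mirror images. The check therefore cannot tell whether same-numbered libraries share more than a number. With the replicate block, Villin had 300 calls and the difference 0, the 2 members called in Villin were Clca1 and Retnlb, and Tff3 turned to 0.48 in Villin, 0.26 on the mean and -0.45 for the difference, Agr2 to 0.025 on the mean and Retnlb to -1.46 for the difference. With the AhCre numbers crossed, chosen after seeing the data, the block gave 46 calls and 1 member in Villin, 48 and 1 on the mean and 0 for the difference. In the block, Villin WT 3 has no KO library of its number, so it adds nothing to the KO contrasts. Retnlb in Villin was 7.31 with the block and 7.33 without Villin WT 3. Tff3 in Villin was 0.48 with the block and 0.23 without Villin WT 3. The changes thus mix the pairing with the loss of that library, and their parts were not tested. Depth limits Retnlb, Il4, Il5, Il13, Il25 and the other resistin-like genes.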
